A study of Mus musculus with 18 samples.

Results

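The genes described here are 10 genes of the integrated stress response and of the neighbouring stress response of the endoplasmic reticulum (ER): Ppp1r15a, Ppp1r15b, Atf4, Ddit3, Trib3, Asns, Chac1, Hspa5, Herpud1 and Xbp1. Every probe set, a group of short oligonucleotides that reads a transcript, was taken whose chip annotation gives one of these symbols and no other gene. This gave 14 probe sets of 36701 tested, and 10 genes of 15964. Asns is read by 5 probe sets and each of the other genes by 1. All 14 were tested, with no filter on dim signals.

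In the integrated stress response, kinases that sense unfolded protein, amino acid shortage, double-stranded RNA or low heme phosphorylate the initiation factor eIF2. General translation is lowered, while a few messengers, Atf4 among them, are translated more, and ATF4 induces genes of amino acid supply and stress. Ppp1r15a (GADD34, induced by stress) and Ppp1r15b (CReP, constitutive) encode the subunits that bring protein phosphatase 1 to eIF2 and so end the signal. Much of this pathway acts on translation and phosphorylation, which mRNA signals do not read.

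Both groups were ES cells of the inbred mouse strain FVB/N, with 3 independently grown dishes in each. The WT dishes carried no transgene and were kept with LIF, the cytokine that activates STAT3 in ES cells. The STAT3-MER dishes (line Tg743) carried STAT3 fused to a mutated estrogen receptor domain that answers to 4-hydroxytamoxifen (OHT), under a chicken β-actin promoter active in most tissues, and were kept with OHT and no LIF. Genotype, line, LIF and OHT therefore changed together and cannot be told apart. The WT cells had not given chimeras, and the p-values measure the spread between dishes of a line, not between lines. Each dish was hybridized to 3 chips (U74Av2, U74Bv2 and U74Cv2), 18 arrays in all, and the comparison asks how expression with activated STAT3-MER differs from expression with LIF.

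The labels were checked on Esr1, whose probe set reads the receptor part of the fusion: its mean signal was 23.1 in WT and 27655 in STAT3-MER dishes. It was the 1 probe set of all 36701 past the threshold of limma (adjusted p = 7.58e-06). Stat3, the other part of the fusion, was read here by 99099_at, with means of 819 ± 17.4 in WT and 925 ± 293 in STAT3-MER dishes (SD, n = 3) and overlapping groups. The paper reports STAT3-MER strongly overexpressed on its arrays. Which part of the Stat3 transcript 99099_at reads was not tested. The ES cell markers Pou5f1, Nanog and Sox2 were bright in both groups, with mean signals of 4345 ± 1933, 9602 ± 3974 and 11311 ± 2230 in the WT group and of 6148 ± 2416, 10107 ± 1499 and 10880 ± 1052 in the STAT3-MER group (SD, n = 3). The lines were raised on mouse embryonic fibroblasts, and 19 of 20 fibroblast markers were measured. Their summed signal on U74Av2 ranged from 21679 to 47394 in WT and from 12680 to 48743 in STAT3-MER dishes, with no marker listed at 0. STAT3-MER replicate 1 was the lowest on every chip. WT replicate 1 was above WT replicate 2 on U74Av2 (38936 against 21679) but below it on U74Bv2 (511 against 778) and U74Cv2 (4091 against 6935), and STAT3-MER replicate 2 was above replicate 3 on U74Av2 (48743 against 36626) and U74Cv2 (9780 against 7115) but below it on U74Bv2 (1042 against 2188). U74Bv2 holds 3 fibroblast probe sets only, and whether the numbers name the same dishes on all chips is in doubt. In such bulk samples, fewer cells of a type and less RNA per cell cannot be told apart.

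Promoter sequence was available in the RefSeq table (GRCm38.p6, 250 bases before to 50 after the start) for 9 of the 10 genes, and 5 of these promoters held a match to an element of the stress response. Those of Ppp1r15a, Atf4, Ddit3 and Xbp1 held none. The ATF4-C/EBP composite site TGATGNAA, which reads TTNCATCA on the other strand, was found on either strand in 4 of the 9 promoters and in 3.97% of 32851 promoters of this length. The ER stress response element, CCAAT and CCACG parted by 9 bases, was found in 1 of the 9 and in 0.119% of all. The unfolded protein response element TGACGTG was found in 1 of the 9 and in 2.01% of all. The STAT site TTCCNGGAA was found in 0 of the 9 and in 1.15% of all. A match describes letters and not a bound site, and no match says nothing of the factor. The stretches that hold the matches follow, 5′ to 3′ along each gene, with the matched letters in capitals.
Asns, composite site, chr6:7693210-7693252, minus strand: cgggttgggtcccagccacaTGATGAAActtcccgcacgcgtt
Chac1, composite site, chr2:119351029-119351076, plus strand: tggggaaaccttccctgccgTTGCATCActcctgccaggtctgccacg
Herpud1, composite site, chr8:94386297-94386344, plus strand: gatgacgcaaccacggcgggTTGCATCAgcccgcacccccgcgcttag
Hspa5, ER stress response element, chr2:34772005-34772063, plus strand: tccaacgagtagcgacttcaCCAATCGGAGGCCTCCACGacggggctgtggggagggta
Hspa5, unfolded protein response element, chr2:34771913-34771959, plus strand: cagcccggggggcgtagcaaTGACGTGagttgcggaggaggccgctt
In Asns the first matched base lies at -23 from the start, in Chac1 at -193 and in Herpud1 at -112. The ER stress response element of Hspa5 begins at -65. In Trib3 the match TTACATCA lies behind the start, its first base at position 15 (chr2:152344039-152344046, minus strand).

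None of the 14 probe sets passed the threshold of 0.05 after adjustment over all 36701 (limma with Benjamini-Hochberg adjustment, adjusted p = 1.0 for each), against 0.00272% of all probe sets. Before adjustment, 3 of the 14 had p under 0.05 and were higher in STAT3-MER dishes, namely Ppp1r15b, Trib3 and the Asns probe set 169130_i_at, where the share over all probe sets was 1.88%. None was lower at that level, against 1.57% of all. Every STAT3-MER dish was above every WT dish for 2 of the 14 (Trib3 and 169130_i_at), against 4.5% of all probe sets, and none had every STAT3-MER dish below, against 3.63%. The criteria of the study's methods (a ratio of means over 1.5, a difference over 100 and p under 0.1 in the methods' t-test) were met upwards by Ppp1r15b and 169130_i_at, against 1.1% of all, and downwards by none, against 0.872%. Alone, the methods' t-test gave p under 0.1 for these 2 of the 14 and for 5.47% of all, and for none after Benjamini-Hochberg adjustment. Shares of so few probe sets rest on single probe sets, and Ppp1r15b was picked by the study on these same arrays, so that its place here is not independent evidence. The paper also reports Ppp1r15b higher by real-time PCR, a measurement that is not part of these arrays.

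**Figure D1:**
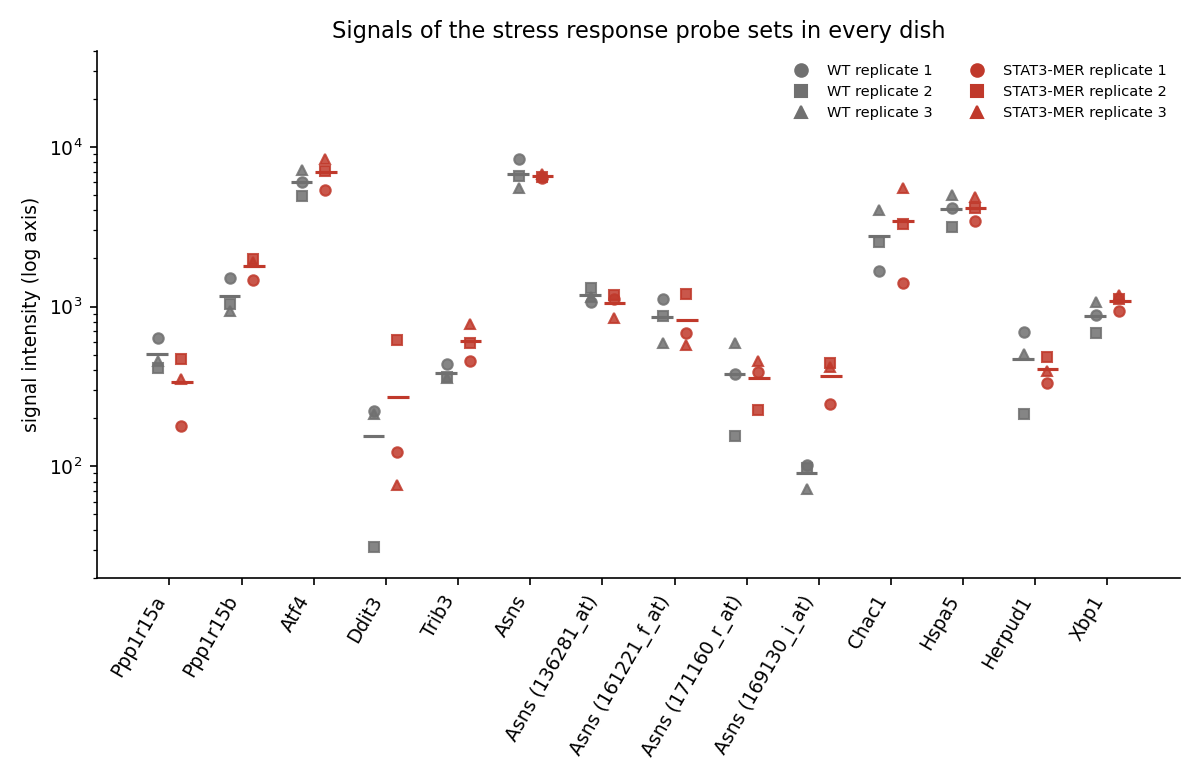
Signal intensity (log axis) of the 14 probe sets in each of the 3 WT (grey) and 3 STAT3-MER (red) dishes, with a line at each group's mean. The groups are apart for Trib3 and the Asns probe set 169130_i_at and overlap for the others, and Ddit3 has the widest scatter. Probe sets differ in brightness per transcript, so heights are compared within a probe set only.

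The regulatory subunits of the eIF2 phosphatase came first. Ppp1r15b (chr1:133131166-133139800; probe set 95609_at) had signals of 1509, 1037 and 934 in WT replicates 1 to 3 and of 1460, 1988 and 1904 in STAT3-MER replicates 1 to 3. WT replicate 1 stood just above STAT3-MER replicate 1, so the groups overlapped at that point, and the other WT dishes were below every STAT3-MER dish. The means were 1160 ± 306 and 1784 ± 284 (SD, n = 3), a ratio of 1.54 and a log2 fold change of 0.62 (SE 0.23, 95% interval 0.09 to 1.16; limma adjusted p = 1.0). Its ratio lay close to the limit of 1.5, and without STAT3-MER replicate 2 or 3, or without WT replicate 2 or 3, it no longer met the criteria of the methods. With median scaling of the arrays its groups did not overlap.

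Ppp1r15a (chr7:45522917-45526268; probe set 160463_at) had signals of 635, 413 and 459 in the WT dishes and of 179, 471 and 353 in STAT3-MER dishes. The lowest dish was STAT3-MER replicate 1 and the highest WT replicate 1, while STAT3-MER replicate 2 stood within the WT range. The ratio of the means was 0.666 and the log2 fold change -0.61 (SE 0.35, 95% interval -1.41 to 0.19; limma adjusted p = 1.0). With a dish left out, the log2 fold change ran from -0.88 without STAT3-MER replicate 2 to -0.26 without STAT3-MER replicate 1. Without STAT3-MER replicate 2, the remaining STAT3-MER dishes were below every WT dish. STAT3-MER replicate 1 was also the dish with the lowest fibroblast signal.

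The subunits were then set against each other within each dish, as log2 of Ppp1r15b over Ppp1r15a. This quantity was 1.21, 1.27 and 0.98 in the WT dishes and 2.82, 2.0 and 2.33 in STAT3-MER dishes. The lowest STAT3-MER value exceeded the highest WT value, with a difference of 1.23 between the means of 1.15 ± 0.15 and 2.38 ± 0.41 (SD, n = 3). The exact two-sided permutation test gave p = 0.1, the smallest that 3 dishes against 3 allow, and 0.3 after Benjamini-Hochberg adjustment over the 9 genes set against Ppp1r15b.

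Of the other 8 differences, those against Asns (0.65) and Hspa5 (0.6) also separated the groups, each with an exact permutation p = 0.1. Asns was read by 95133_at here. Its other probe sets, among them 169130_i_at with a log2 fold change of 1.68, were not set against Ppp1r15b. The groups overlapped for Herpud1 (0.7, exact permutation p = 0.3), Atf4 (0.43, p = 0.2), Xbp1 (0.31, p = 0.4) and Chac1 (0.44, p = 0.7), the last read on another chip and so resting on replicate numbers that may not name the same dishes. Against Ddit3 the difference was 0.13 (exact permutation p = 0.9). Against Trib3 it was 0.03 (exact permutation p = 1.0), with log2 fold changes of 0.62 for Ppp1r15b and 0.59 for Trib3. The share of probe set pairs that separate the groups in this way was not computed for other genes, so the number of separating genes has no background. Ppp1r15b was picked by the study on these arrays. The log2 fold changes were -0.03 for Asns (95133_at) and 0.03 for Hspa5, so the differences against them are close to that of Ppp1r15b alone.

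**Figure D2:**
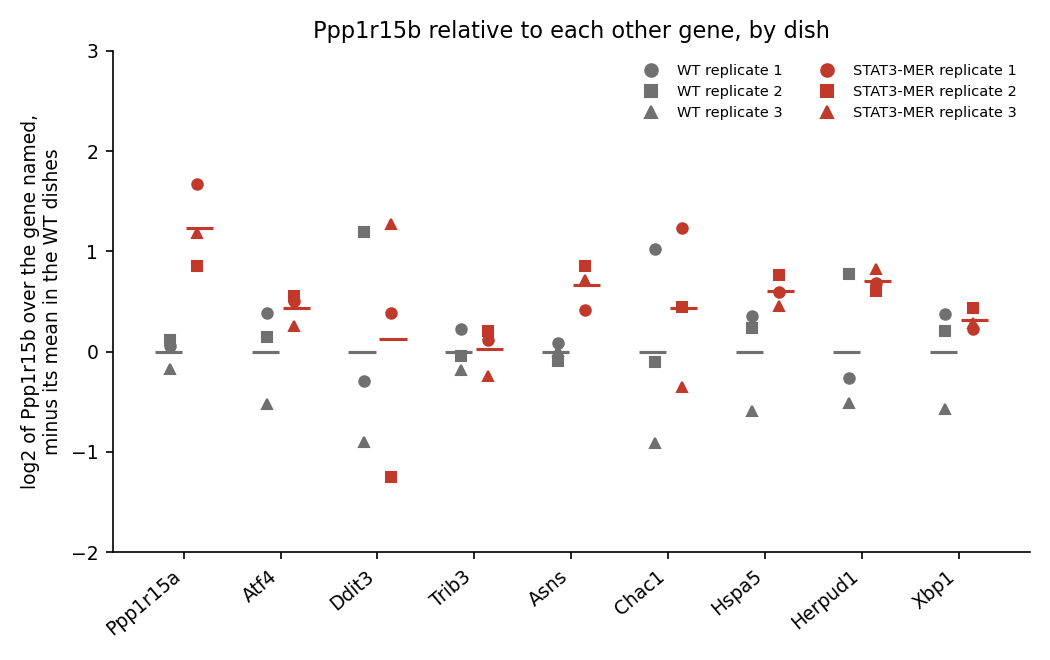
Log2 of the Ppp1r15b signal over that of each other gene in the same dish, less its mean in the 3 WT dishes (grey; STAT3-MER in red, lines at group means). The groups are apart for Ppp1r15a, Asns and Hspa5, with the STAT3-MER dishes on top, and lie within the same range for Trib3.

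The transcription factors followed. Atf4 (chr15:80255184-80257545; probe set 100599_at), the central activator of the pathway, had signals of 6066, 4955 and 7127 in the WT dishes and of 5397, 7085 and 8347 in STAT3-MER dishes. The groups overlapped through most of their range, and STAT3-MER replicate 1 was below 2 of the WT dishes. The ratio was 1.15 and the log2 fold change 0.19 (SE 0.23, 95% interval -0.33 to 0.72), with a range of 0.05 to 0.36 when a dish was left out.

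Ddit3 (chr10:127290793-127296291; probe set 101429_at) encodes CHOP, a factor induced under prolonged stress. Its signals were 222, 31.1 and 211 in the WT dishes and 122, 618 and 76.6 in STAT3-MER dishes. The highest dish, STAT3-MER replicate 2, stood 19.9 times above the lowest, WT replicate 2, and of the remaining 4 dishes both WT dishes were above both STAT3-MER dishes. The SD within groups was 1.26 on the log2 scale, larger than for 99.4% of the probe sets of its chip. The log2 fold change of 0.49 had a 95% interval from -1.26 to 2.25 and was -0.29 without STAT3-MER replicate 2.

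Among the targets of ATF4, Trib3 (chr2:152337425-152344060; probe set 161067_at), a pseudokinase that dampens ATF4 and AKT signalling, had signals of 436, 360 and 359 in the WT dishes and of 456, 588 and 781 in STAT3-MER dishes. The groups were apart, but their nearest dishes, 436 and 456, were close. The means were 385 ± 44.5 and 608 ± 163 (SD, n = 3), a ratio of 1.58 and a log2 fold change of 0.59 (SE 0.25, 95% interval 0.03 to 1.16; limma adjusted p = 1.0). With a dish left out, the log2 fold change ran from 0.41 to 0.77. Trib3 missed the criteria of the methods with unequal variances in their test and met them with equal variances or on log2 values.

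Asns (chr6:7675165-7693209) encodes asparagine synthetase, whose promoter holds the composite site shown above. The brighter of its 2 probe sets without a suffix for cross-hybridization, 95133_at, had signals of 8351, 6529 and 5508 in the WT dishes and of 6428, 6455 and 6797 in STAT3-MER dishes. The STAT3-MER dishes lay close together inside the WT range, and the log2 fold change was -0.03 (SE 0.2, 95% interval -0.49 to 0.43).

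The other probe sets of Asns did not all go the same way. The probe set 169130_i_at of U74Cv2 had signals of 102, 97.7 and 71.9 in the WT dishes and of 246, 441 and 416 in STAT3-MER dishes. The groups were apart, with a ratio of 4.06 and a log2 fold change of 1.68 (SE 0.45, 95% interval 0.66 to 2.69; limma adjusted p = 1.0). The log2 fold changes of the others were -0.17 (136281_at), -0.09 (161221_f_at) and 0.04 (171160_r_at), all with overlapping groups. The probe set 169130_i_at did not meet the criteria of the methods without STAT3-MER replicate 2 or 3. The suffix i marks a set with fewer unique probes than the design called for, f and r mark other relaxed designs, and which transcript 169130_i_at reads was not tested. With the mean over all 5 probe sets, the log2 fold change of Asns was 0.29.

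Chac1 (chr2:119351242-119354326; probe set 115844_at), which encodes an enzyme that breaks down glutathione and is a late target of ATF4, was read on U74Bv2. Its signals were 1680, 2546 and 4045 in the WT dishes and 1398, 3302 and 5537 in STAT3-MER dishes. The dishes of both groups were spread over nearly the whole range, and the lowest and the highest were both STAT3-MER dishes. On the log2 scale the fold change was 0.19 (SE 0.47, 95% interval -0.87 to 1.24). On this chip same-numbered dishes of the groups deviated together (correlations of 0.18, 0.211 and 0.13), and with a replicate block the SE was 0.2 and the limma adjusted p 0.999.

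Over the 6 dishes Chac1 followed the fibroblast markers of its chip, a relation looked for after the data were seen. The summed signal of 3 fibroblast probe sets (2 genes) was 511, 778 and 1656 in the WT dishes and 249, 1042 and 2188 in STAT3-MER dishes, the same order as that of Chac1. The probe set of Prrx1 alone had 201, 544 and 1313 in the WT dishes and 96.4, 788 and 1738 in STAT3-MER dishes. On U74Av2 and U74Cv2, with more markers, STAT3-MER replicate 3 was below replicate 2. Pearson's r was 0.98 (exact permutation p = 0.00278) and Spearman's rho 1.0 (exact permutation p = 0.00278, the smallest that 6 dishes allow). After Benjamini-Hochberg adjustment over the 10 genes each was 0.0278 (exact permutation), and r was 0.98 without STAT3-MER replicates 1 and 3, the dishes farthest from the median. The permutations treat the dishes as exchangeable and take no account of the shared numbers. The share of U74Bv2 probe sets that follow this sum as closely was not computed, so the relation is not shown to be particular to Chac1. The part of fibroblasts in the Chac1 signal was not tested.

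For the 9 genes on U74Av2 the same correlation ran from 0.0 for Asns to 0.81 for Ppp1r15a. It was 0.15 for Ppp1r15b (rho 0.31) and 0.22 for Trib3 (rho -0.03), with exact permutation p of 0.825 and 0.678 for r and of 0.564 and 1.0 for rho. For Ppp1r15a the exact permutation p was 0.0514 for r and 0.103 for rho (0.77), and 0.257 and 0.34 after adjustment. Without WT replicate 2 and STAT3-MER replicate 1, its r was 0.13, so the relation rested on those dishes. For Hspa5, Atf4, Herpud1, Ddit3 and Xbp1, r was 0.76, 0.72, 0.66, 0.58 and 0.5 (exact permutation p from 0.0833 to 0.342). Without the same dishes, r of these genes was -0.11, -0.18, 0.04, 0.8 and 0.13. After adjustment, none of the 9 was under 0.05.

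**Figure D3:**
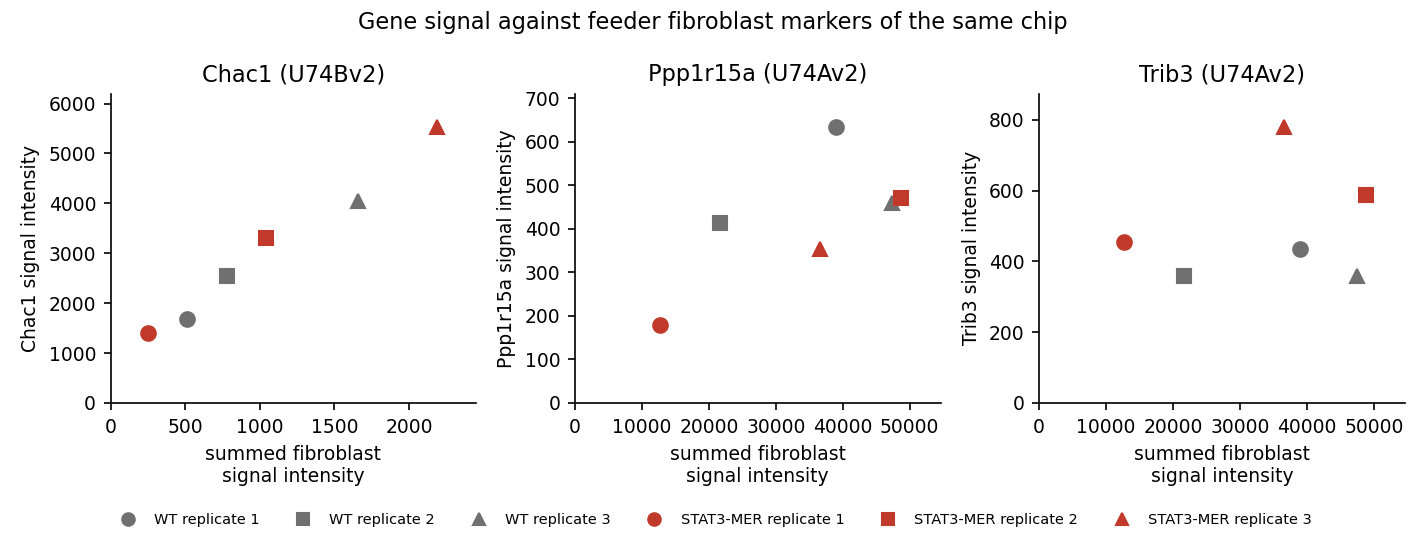
Signal intensity of Chac1, Ppp1r15a and Trib3 against the summed signal intensity of fibroblast markers on the same chip, 1 point per dish (WT grey, STAT3-MER red). The dishes fall along a line for Chac1 (r = 0.98), Ppp1r15a is lowest in STAT3-MER replicate 1, and Trib3 shows no such order (r = 0.22). The axes are linear, while r was computed on log2 values.

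The ER stress targets came last. Hspa5 (chr2:34772090-34776529; probe set 101955_at), the ER chaperone BiP and the gene with the ER stress response element shown above, had signals of 4156, 3130 and 5024 in the WT dishes and of 3425, 4133 and 4882 in STAT3-MER dishes. The means of 4103 ± 948 and 4147 ± 728 (SD, n = 3) were nearly equal, with a log2 fold change of 0.03 (SE 0.23, 95% interval -0.5 to 0.56).

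Herpud1 (chr8:94386429-94395371; probe set 95057_at), which helps to remove unfolded protein from the ER, had signals of 689, 212 and 506 in the WT dishes and of 330, 486 and 395 in STAT3-MER dishes. The STAT3-MER dishes lay inside the WT range, whose low end was WT replicate 2. The log2 fold change was -0.08 (SE 0.39, 95% interval -0.99 to 0.83).

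Xbp1 (chr11:5520641-5525993; probe set 94821_at) encodes a factor that is made active by splicing of its mRNA, which a single probe set does not read. Its signals were 880, 680 and 1071 in the WT dishes and 943, 1114 and 1189 in STAT3-MER dishes. WT replicate 3 stood between STAT3-MER replicates 1 and 2, and the other WT dishes were below all STAT3-MER dishes. The log2 fold change was 0.31 (SE 0.22, 95% interval -0.19 to 0.81), with a range of 0.14 to 0.46 when a dish was left out.

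Across the 10 genes, with 1 probe set each, 7 log2 fold changes were positive and 3 negative, where 50.5% of all 15964 genes were positive. The median was 0.19, and that of all genes was 0.0. The 95% interval held 0 for 8 of the 10, all but Ppp1r15b and Trib3. These 2 had limma p under 0.05 before adjustment, against 2.93% of all genes, and Ppp1r15b was picked by the study on these arrays. For Ppp1r15b and Trib3 the interval also held 0 in 4 of the 6 fits with a dish left out. These were the fits without WT replicate 2 or 3 or STAT3-MER replicate 2 or 3. The dishes did not rank alike: STAT3-MER replicate 3 was highest for 4 genes and WT replicate 1 for 3, and WT replicate 2 was lowest for 5. Such ranks were not counted over all genes.

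**Figure D4:**
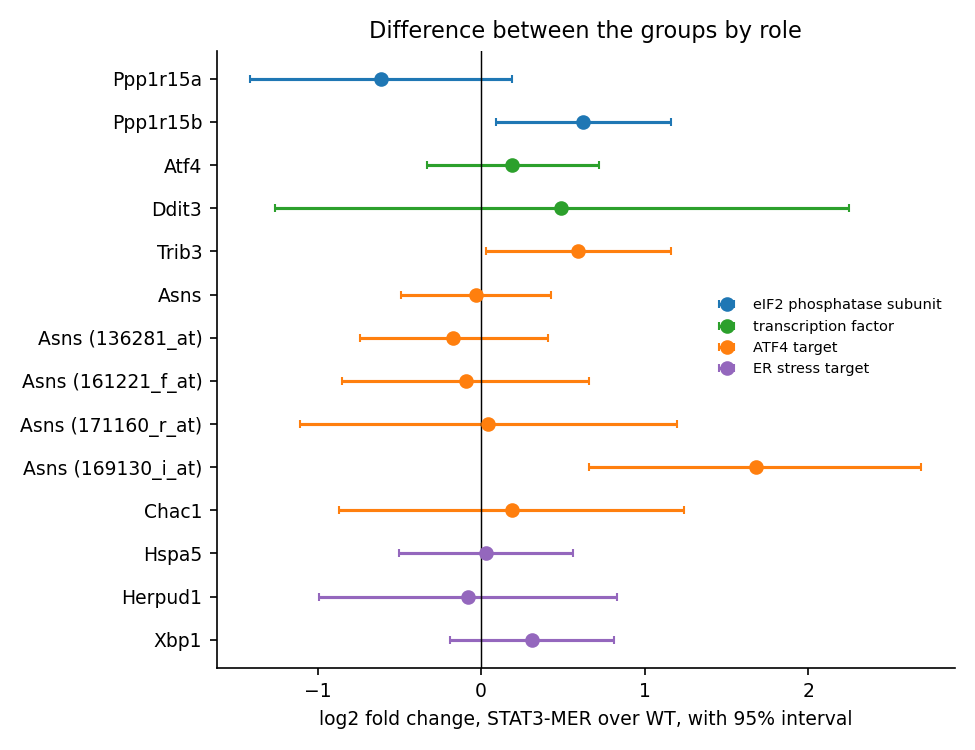
Log2 fold change of STAT3-MER over WT for the 14 probe sets with 95% intervals from limma, coloured by the gene's role. The intervals of Ppp1r15b, Trib3 and the Asns probe set 169130_i_at do not reach 0, and those of the ER stress targets centre near 0 to 0.31.

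The probe sets most like Ppp1r15b, Atf4 and Trib3 across the 6 dishes were looked up among 5033 probe sets of U74Av2 with a mean signal of at least 200. For Ppp1r15b they were Arl3 (r = 0.99), a small GTPase of cilia, and Pim3 (r = 0.98), a kinase known as a STAT3 target. Pim3 had signals of 1051, 921 and 891 in the WT dishes and of 1080, 1339 and 1284 in STAT3-MER dishes, and its groups did not overlap (log2 fold change 0.36, limma adjusted p = 1.0). For Atf4 they were Dnm1 and Shisa5 (each r = 0.98), and for Trib3 Lama3 (r = 0.98) and Inpp5b (r = 0.96). The groups did not overlap either for Arl3 (log2 fold change 0.21), Lama3 (0.61) and Inpp5b (0.38), and they overlapped for Dnm1 and Shisa5. A probe set picked for a high r shares the group difference of its gene by that choice, so these separations are not separate evidence. With 6 dishes and so many probe sets, values this high are the top of a long list and are given as a description.

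The surrounding pathway was covered by 9 lists with 80 genes, of which 77 were measured. None passed the limma threshold, and 1, Eif2s2, had p under 0.05 before adjustment (1.3% of the list genes, against 2.93% of all genes). The groups did not overlap with STAT3-MER higher for 7 genes (9.09%) and lower for 1 (1.3%), where the shares over all genes were 4.02% and 3.5%. The log2 fold change was positive for 42 of the 77 (54.5%, against 50.5% of all), with a median of 0.05.

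Of the upstream parts, the 4 eIF2 kinases had a median log2 fold change of -0.14. Eif2ak4 (GCN2, the sensor of amino acid shortage) was lower in every STAT3-MER dish, at 155, 129 and 128 in the WT dishes and 105, 84.6 and 118 in STAT3-MER dishes, with a log2 fold change of -0.33 (limma adjusted p = 1.0). Eif2ak3 (PERK, the sensor of unfolded protein in the ER) had 0.36 with overlapping groups. Among 8 measured subunits of eIF2 and its exchange factor eIF2B, Eif2s2, the β subunit of eIF2, had signals of 211, 157 and 170 in the WT dishes and of 641, 517 and 712 in STAT3-MER dishes. Its groups were far apart, with a log2 fold change of 1.63 (SE 0.24, limma adjusted p = 0.6), and it too was picked by the study on these arrays. Eif2b4 had -0.28 and the list a median of 0.1. Of the 3 catalytic subunits of protein phosphatase 1, which PPP1R15 proteins bind, Ppp1cc had 0.25 with all STAT3-MER dishes above the WT dishes, and Ppp1ca had -0.29 with overlap.

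Downstream, the 7 partners of ATF4 and related factors had a median of -0.11. Cebpb, a partner of ATF4, had signals of 262, 201 and 263 in the WT dishes and of 292, 391 and 357 in STAT3-MER dishes, without overlap (log2 fold change 0.47). Sesn2 had -0.51 with overlap. Of 17 measured amino acid supply genes (median 0.09), the groups were apart for Cbs (0.73), an enzyme of cysteine synthesis, and Slc3a2 (0.27), a subunit of amino acid transporters. Of 12 cytosolic tRNA synthetases (median 0.11), they were apart for Aars (0.24) and Wars (0.26). All of these had a limma adjusted p of 1.0.

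On the ER side, the 5 stress sensors and their proteases had a median of -0.08, with Ern1 (IRE1α) at -0.35 and Atf6 at 0.33. The 14 chaperones and folding enzymes had a median of -0.05, and those with the smallest p were Calr (0.45, with signals no higher than 39.4) and Dnajb11 (0.23). The 7 measured genes of ER-associated degradation had a median of 0.14, with Derl2 at 0.59 and Sel1l at 0.42. In none of these 3 lists was any gene without overlap between the groups.

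**Figure D5:**
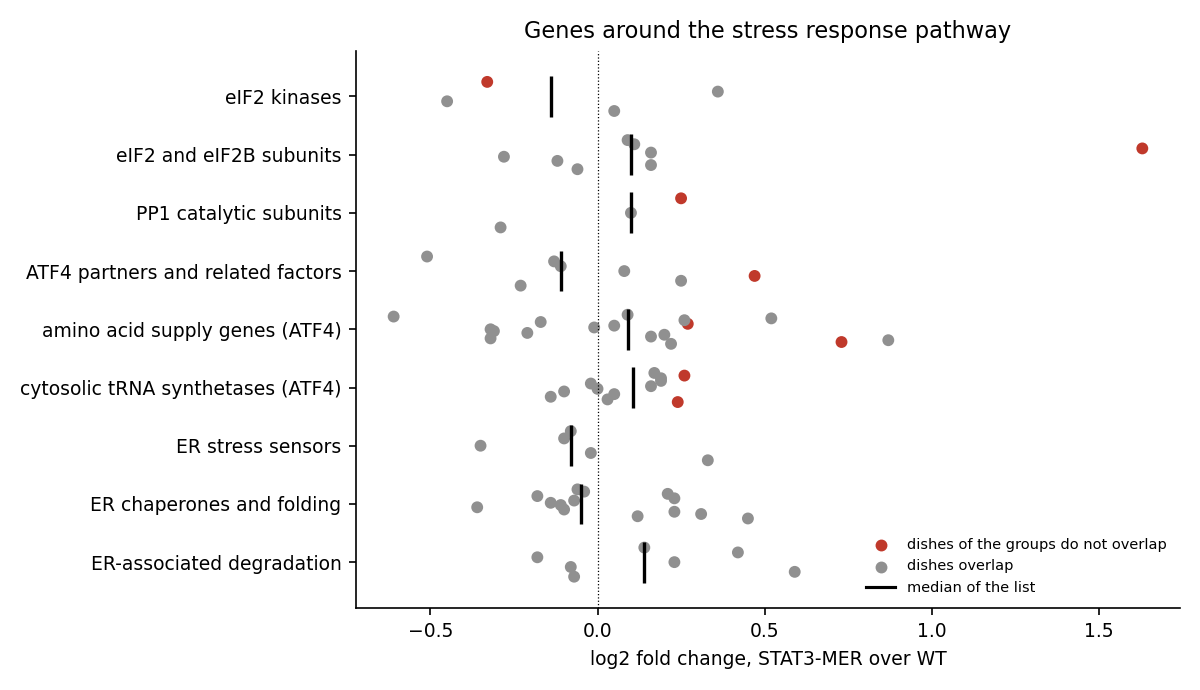
Log2 fold change of STAT3-MER over WT for the 77 measured genes of 9 pathway lists, 1 point per gene, with the median of each list as a bar and genes whose groups do not overlap in red. The red points are 7 with positive and 1 with negative values, Eif2s2 lies farthest right at 1.63, and the medians run from -0.14 to 0.14.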

How the data were processed

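Deposited tables of the 3 chips hold 1 signal intensity per probe set and array. The authors amplified the RNA before labelling, and MAS5 is named, without a version, in the submitters' processing notes. The intensities are linear and were scaled per array, with no detection calls. Scaling, probe design and amplification with oligo-dT primers can affect dim probe sets most. The authors' own fold changes came from dChip and were not used.

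Trimmed means (2% off either end) were brought to a common value for the arrays of a chip. Then limma 3.58.1 (R 4.3.3) compared log2(signal + 32), chip by chip, using lmFit and trended eBayes with two-sided tests, and p-values were adjusted by Benjamini-Hochberg over 36701 probe sets without the 198 controls, with a threshold of 0.05. Fold changes of dim signals are understated on this scale. Ratios were taken between mean signals. The fit was checked on simulated arrays. The form of the methods' t-test is not given, and unequal variances were allowed. Exact permutation tests used scipy 1.17.1. The number of arrays limits the precision.

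Groups came from the sample labels. An array with no number was given the number left over, and an array whose labels name different chips was assigned by its probe sets. Gene names came from the chip annotation, updated through RefSeq (GRCm38.p6). All probe sets of the 10 genes were named, and so were Eif2s2 and, per list, the 2 genes of smallest p. Probe sets without a suffix were preferred to represent a gene, then the brightest. Some genes were read by a set with a suffix, among them Sesn2 (165600_i_at), Eif2b4 (168311_f_at) and Sox2 (100009_r_at). The ES cell and fibroblast markers described the cells in the dishes, and Esr1 checked the group labels. The genes, lists and tests were chosen with earlier results of these data known. The relation with fibroblast markers was added after the data were seen. Deviations of same-numbered dishes correlated above 0.1 in all 3 pairs on U74Bv2, where Chac1 is read, so that its blocked value is given too, but not in all pairs on U74Av2 (-0.295, -0.335 and 0.287) or U74Cv2 (0.107, 0.132 and 0.07). Alternatives were pseudocounts of 8 and 100, other scalings, omission of dim probe sets, eBayes without the trend, a replicate block, adjustment per chip, omission of each dish, other forms of the t-test, a ratio of 2 and the mean over probe sets.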

Additional observations from a re-analysis of the deposited data

How the results depend on the processing

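No member probe set and no pathway gene passed the limma threshold under any alternative, the replicate block included (0 and 0), and the number called among all probe sets was 1 throughout except 2 without WT replicate 3. Probe sets whose groups do not overlap numbered 3 with median scaling, Ppp1r15b added. With a dish left out they numbered 2 to 4, a count that can then only stay or grow. Those past the methods' criteria numbered 0 to 2 with a dish left out, 0 without STAT3-MER replicate 2 or 3, 3 with equal variances or log2 values in the methods' t-test, Trib3 added, and 1 with a ratio over 2 or with a replicate block in the methods' t-test. Genes against which Ppp1r15b separated the groups numbered 3 to 5 with a dish left out, a count that likewise can only stay or grow. Of 131 alternative log2 fold changes of the genes, 120 kept their sign. With a dish left out, the range was -0.29 to 1.0 for Ddit3 (-0.17 without WT replicate 2), -0.17 to 0.13 for Asns, -0.26 to 0.72 for Chac1 (-0.12 without WT replicate 1), -0.15 to 0.18 for Hspa5 (-0.1 without STAT3-MER replicate 3) and -0.53 to 0.25 for Herpud1 (0.04 without WT replicate 3, 0.05 without STAT3-MER replicate 1), so these 5 have no settled direction. Asns was 0.29 as the mean over its probe sets. Ppp1r15a, Ppp1r15b, Atf4, Trib3 and Xbp1 kept their sign in all alternatives run. On U74Av2 the 95% intervals of Ppp1r15b and Trib3 held 0 with the replicate block. There WT replicates 1 and 2 correlated best with STAT3-MER replicates 2 and 1 (0.459 and 0.413), which were not paired anew. The causes of these changes were not tested. With 3 dishes a group, the intervals in the text are the measure of what could not be detected.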
